A study of Mus musculus with 8 samples.

Results

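Interferon regulatory factors (IRFs) are transcription factors that share an N-terminal DNA-binding domain with conserved tryptophans and bind the GAAA repeats found in promoters of interferon and interferon-stimulated genes. The 8 genes described here, Irf1, Irf2, Irf3, Irf4, Irf5, Irf7, Irf8 and Irf9, were taken by matching their symbols to Ensembl IDs in a table of raw RNA-seq counts, and all 8 had a row among the 55414 gene rows. The counts came from red pulp macrophages, the splenic macrophages that clear aged red blood cells and recycle iron, sorted by flow cytometry. In the CLP group, 4 libraries were made from cells taken 2 h after cecal ligation and puncture, a sepsis model in which gut bacteria leak from the punctured cecum into the abdomen. In the Sham group, 4 libraries were made from cells taken 2 h after sham surgery. All mice were WT C57BL/6J, and the labels do not give their age or say whether the libraries of a group come from different animals. The p-values therefore reflect the variation among these libraries, part of which may be technical. Total counts lay between 17333748 and 21409078 in CLP libraries and between 15392992 and 25665633 in Sham libraries, and the IRF genes rested on 169 to 13557 counts per library.

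Within the family the factors have different roles. IRF3 is present in resting cells, is phosphorylated by the kinases TBK1 and IKK-epsilon, and starts interferon-beta transcription, while IRF7 amplifies that response. IRF9 is the DNA-binding subunit of ISGF3, the complex with STAT2 that answers type I interferon. IRF1 is made in response to interferon-gamma and to inflammatory signals through NF-kB, and IRF2 competes for its sites and can antagonise it. IRF5 acts downstream of MyD88 on inflammatory cytokine genes, and IRF4 can bind MyD88 in its place. IRF4 and IRF8 are largely restricted to blood cells and bind DNA with partners such as PU.1 and BATF, and IRF8 is needed for normal macrophage and dendritic cell development.

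The promoters of 3 of the 8 genes are shown because they hold a match to an element that links genes to interferon-gamma signalling, and because Irf1 was higher after CLP while Irf2 and Irf8 were lower. RefSeq gave 11 promoter windows for the 8 genes on build GRCm38.p6, an older build than the mm39 named for the counts. Capitals mark matches, on either strand, to the gamma-activated sequence (GAS, TTCNNNGAA) or to the core of the interferon-stimulated response element (ISRE, GAAANNGAAA). The windows run 5′ to 3′ along the strand of the gene. Irf1 lies on the plus strand at chr11:53769764-53770063, Irf2 on the plus strand at chr8:46739495-46739794, and Irf8 on the plus strand at chr8:120736108-120736407.
Irf1: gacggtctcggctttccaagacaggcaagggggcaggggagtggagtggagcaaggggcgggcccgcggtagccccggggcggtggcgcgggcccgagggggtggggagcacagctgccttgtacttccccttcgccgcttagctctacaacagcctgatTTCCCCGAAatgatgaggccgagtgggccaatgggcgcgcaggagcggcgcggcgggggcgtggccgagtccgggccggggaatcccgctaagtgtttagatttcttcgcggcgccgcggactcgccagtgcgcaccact
Irf2: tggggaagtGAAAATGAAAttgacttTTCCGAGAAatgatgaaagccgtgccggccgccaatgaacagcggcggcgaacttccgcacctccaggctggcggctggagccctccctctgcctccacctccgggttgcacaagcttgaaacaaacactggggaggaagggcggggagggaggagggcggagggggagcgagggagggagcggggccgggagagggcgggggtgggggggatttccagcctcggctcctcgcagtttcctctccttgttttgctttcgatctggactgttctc
Irf8: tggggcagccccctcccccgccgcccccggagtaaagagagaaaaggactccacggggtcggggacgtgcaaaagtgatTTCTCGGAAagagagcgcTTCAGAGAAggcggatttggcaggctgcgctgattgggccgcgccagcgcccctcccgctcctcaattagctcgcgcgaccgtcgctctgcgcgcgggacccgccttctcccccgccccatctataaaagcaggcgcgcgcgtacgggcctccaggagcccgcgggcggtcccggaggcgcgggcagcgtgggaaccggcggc
The Irf1 window held 1 GAS match, at position -90 from the start site, and the second annotated Irf1 start had none. The Irf2 window held 1 ISRE core at position -241 and 1 GAS match at -224, which did not overlap. The Irf8 window held 2 GAS matches, at -171 and -153, and its other annotated start had none. A GAS match was present in 8.30% and an ISRE core in 3.44% of all 32851 promoter windows. A wider NF-kB frame, GGGNNNNNCC, matched at least 1 window of all 8 genes but also 50.8% of all windows. Its matches in Irf1 included GGGGAATCCC at position -13, and the match in Irf2 was GGGGATTTCC at -17. None of the windows of Irf3, Irf4, Irf5, Irf7 and Irf9 held these GAS or ISRE letters.

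After CLP, Irf1, Irf4 and Irf5 were called higher, Irf2, Irf3, Irf8 and Irf9 were called lower, and Irf7 was not called, in edgeR's quasi-likelihood test with Benjamini-Hochberg adjustment over all 14004 genes tested and a threshold of 0.05. All 8 genes passed the filter on low counts. The background was high, since 43.3% of all genes tested were called, 19.8% higher and 23.5% lower. Levels are given as CPM, the counts scaled to a common library size with TMM factors. A positive log2 fold change means a higher level in CLP, and SE stands for its standard error. In bulk libraries, fewer cells of a type and less RNA per cell cannot be told apart. Scaling mattered for the small changes: with library totals in place of TMM the fold changes of all genes shifted by a median of -0.32, with 55.1% of genes called, 9.18% higher and 46.0% lower, and Irf1 and Irf4 were then higher, Irf5 was not called, and Irf2, Irf3, Irf7, Irf8 and Irf9 were lower.

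**Figure D1:**
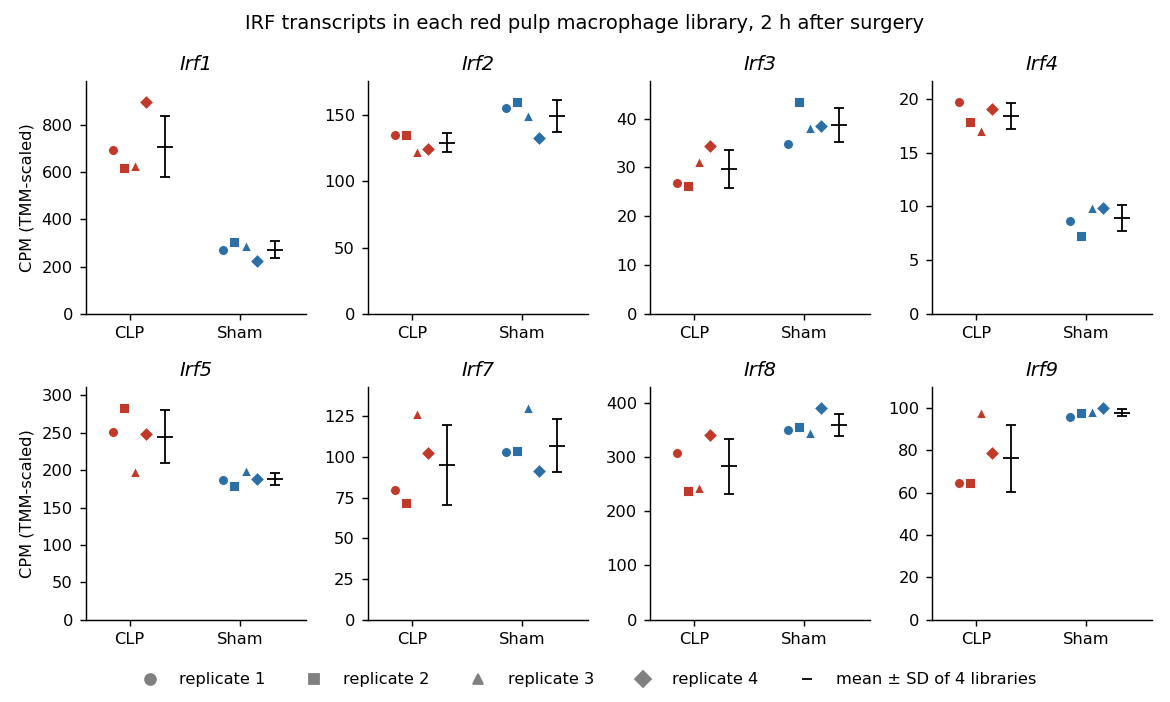
CPM of each IRF transcript in the 4 CLP libraries (red) and the 4 Sham libraries (blue), with linear axes from 0, a marker shape for each replicate number and black bars for the mean ± SD. CLP libraries sit above all Sham libraries for Irf1 and Irf4 and below all Sham libraries for Irf3 and Irf8, while the groups overlap for Irf2, Irf5, Irf7 and Irf9.

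Irf1 had the largest change of the family. It stood at 692, 616, 628 and 897 CPM in CLP libraries, against 272, 303, 289 and 222 CPM in Sham libraries. Every CLP library was above every Sham library, with CLP replicate 4 the highest and Sham replicate 4 the lowest. The mean was 709 ± 130 CPM in CLP and 271 ± 36 CPM in Sham (SD, n = 4 each), a 2.61-fold rise (log2 fold change 1.38, SE 0.14, edgeR adjusted p = 2.23e-05). The 95% interval of the log2 fold change ran from 1.09 to 1.68, and Irf1 was called in all 16 alternative settings, with log2 fold changes from 1.06 to 1.47.

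Irf2, the factor that competes with IRF1, did not move with it. Its levels were 135, 135, 122 and 125 CPM in CLP libraries and 155, 160, 150 and 132 CPM in Sham libraries. The groups overlapped only through Sham replicate 4, which lay just below the highest CLP libraries. The mean of 129 ± 7.0 CPM in CLP against 149 ± 12 CPM in Sham gave a log2 fold change of -0.21 (SE 0.08, edgeR adjusted p = 0.0474, 95% interval -0.38 to -0.04). This call was marginal: without any single library other than Sham replicate 4 it was lost, with adjusted p from 0.0528 to 0.253, and it was also lost with DESeq2 size factors (0.115), DESeq2 (0.152) and limma-voom (0.0521).

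The ratio of Irf1 to Irf2 counts in the same library does not depend on scaling. It was 5.12, 4.56, 5.15 and 7.20 in CLP libraries and 1.75, 1.90, 1.93 and 1.67 in Sham libraries. The groups did not overlap, and the ratio was 3.00-fold higher in CLP (log2 difference 1.58, two-sided exact permutation p = 0.0286, the smallest that 70 assignments allow, adjusted p = 0.0429 over the 6 ratios tested). The ratio of Irf1 to Irf8 counts was 2.25, 2.59, 2.58 and 2.63 in CLP libraries and 0.780, 0.855, 0.839 and 0.569 in Sham libraries (log2 difference 1.74, exact permutation p = 0.0286, adjusted p = 0.0429). Irf8 counts exceeded Irf1 counts in every Sham library and in no CLP library, but counts are not corrected for gene length. Per kilobase of annotated exon, Irf1 was above Irf8 in every Sham library as well. There Irf1 stood at 68.4, 76.2, 72.7 and 55.7 CPM per kb and Irf8 at 49.4, 50.2, 48.8 and 55.2 CPM per kb. With the longest transcript as the length (2.137 kb for Irf1 and 3.469 kb for Irf8), the order was reversed in Sham replicate 4.

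Of the pair that launches the interferon response, Irf3 was lower and Irf7 was not called. Irf3 was at 26.7, 26.2, 31.0 and 34.4 CPM in CLP libraries and at 34.7, 43.4, 38.2 and 38.4 CPM in Sham libraries. The groups did not overlap, though CLP replicate 4 and Sham replicate 1 came within 1 CPM of each other. Irf3 averaged 29.6 ± 3.9 CPM in CLP and 38.7 ± 3.5 CPM in Sham (SD, 4 libraries each). The log2 fold change was -0.39 (SE 0.11, edgeR adjusted p = 0.0134), and the call was lost without Sham replicate 2 (adjusted p = 0.0627). Irf3 shares 2.6% of its annotated exon bases with Bcl2l12 on the opposite strand. Other members share exon bases too: Irf1 3.4% with Gm17334 and Irf7 1.2% with Phrf1, both on the opposite strand. Irf9 shares 2.3% with Rnf31 on the same strand.

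Irf7 had the largest coefficient of variation of the 8 genes in both groups, 25.9% in CLP and 15.3% in Sham. It was at 79.7, 71.7, 126 and 103 CPM in CLP libraries and at 103, 104, 130 and 91.2 CPM in Sham libraries. CLP replicates 1 and 2 were below all Sham libraries, whereas CLP replicates 3 and 4 lay inside the Sham range. The log2 fold change was -0.17 (SE 0.18, edgeR adjusted p = 0.487), and its 95% interval of -0.57 to 0.23 leaves room for a change in either direction. With library totals Irf7 was called lower (-0.49, adjusted p = 0.0402). The ratio of Irf7 to Irf3 counts was 2.98, 2.74, 4.08 and 2.98 in CLP libraries and 2.96, 2.39, 3.40 and 2.37 in Sham libraries. These groups overlapped (log2 difference 0.20, exact permutation p = 0.229, adjusted p = 0.274).

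Irf9, the ISGF3 subunit, was called lower. It was at 64.4, 64.4, 97.8 and 78.6 CPM in CLP libraries and at 95.6, 97.7, 98.1 and 99.8 CPM in Sham libraries. The coefficient of variation was 20.7% in CLP and 1.76% in Sham, and only CLP replicate 3 reached the Sham range. The log2 fold change was -0.36 (SE 0.12, edgeR adjusted p = 0.0344), and it was -0.50 (adjusted p = 0.000636) without CLP replicate 3. The call was lost when any other single library was left out (adjusted p 0.0623 to 0.0970) and with DESeq2 (0.0502). Stat2, which binds IRF9 in ISGF3, had a similar split, at 64.2, 62.6, 144 and 122 CPM in CLP libraries and 142, 128, 158 and 120 CPM in Sham libraries, and was not called (log2 fold change -0.49, adjusted p = 0.198). The Irf9 to Stat2 ratio overlapped between the groups (log2 difference 0.20, exact permutation p = 0.314, adjusted p = 0.314).

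Irf4 and Irf5, which meet at MyD88, were both higher. Irf4 was at 19.7, 17.8, 17.0 and 19.1 CPM in CLP libraries and at 8.68, 7.25, 9.85 and 9.87 CPM in Sham libraries. All CLP libraries were above all Sham libraries and lay close together. The mean was 18.4 ± 1.2 CPM in CLP and 8.91 ± 1.24 CPM in Sham, a 2.07-fold rise (log2 fold change 1.05, SE 0.13, edgeR adjusted p = 7.82e-05, 95% interval 0.77 to 1.33), called in all 16 alternative settings. Irf4 was the member with the fewest reads, 288 to 349 in CLP libraries and 169 to 240 in Sham libraries.

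Irf5 was at 251, 283, 197 and 248 CPM in CLP libraries and at 187, 178, 199 and 189 CPM in Sham libraries. CLP replicate 3 lay inside the Sham range and the other CLP libraries lay above it. The log2 fold change was 0.38 (SE 0.10, edgeR adjusted p = 0.0101, 95% interval 0.16 to 0.60) with TMM and 0.06 (adjusted p = 0.627) with library totals, which ends the call. Of the annotated exon bases of Irf5, 14.1% overlap Tnpo3 on the opposite strand, and Tnpo3 itself was not called (log2 fold change 0.04, adjusted p = 0.749). The ratio of Irf4 to Irf5 counts was 0.0786, 0.0632, 0.0867 and 0.0770 in CLP libraries and 0.0466, 0.0407, 0.0497 and 0.0524 in Sham libraries. All CLP libraries were higher, and the ratio rose 1.61-fold (log2 difference 0.69, exact permutation p = 0.0286, adjusted p = 0.0429).

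Irf8, the myeloid lineage factor, was at 308, 238, 243 and 341 CPM in CLP libraries and at 349, 354, 344 and 389 CPM in Sham libraries. The groups did not overlap, but CLP replicate 4 came within 4 CPM of Sham replicate 3. The log2 fold change was -0.35 (SE 0.11, edgeR adjusted p = 0.0288, 95% interval -0.60 to -0.10). The call was kept without CLP replicate 1 (adjusted p = 0.0352) or CLP replicate 4 (0.00818), was lost without any other single library (0.0622 to 0.0894), and was lost with DESeq2 size factors (0.0511). The ratio of Irf8 to Irf4 counts was 15.6, 13.3, 14.3 and 17.8 in CLP libraries and 40.1, 48.8, 34.9 and 39.4 in Sham libraries. All CLP libraries were lower (log2 difference -1.42, exact permutation p = 0.0286, adjusted p = 0.0429).

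**Figure D2:**
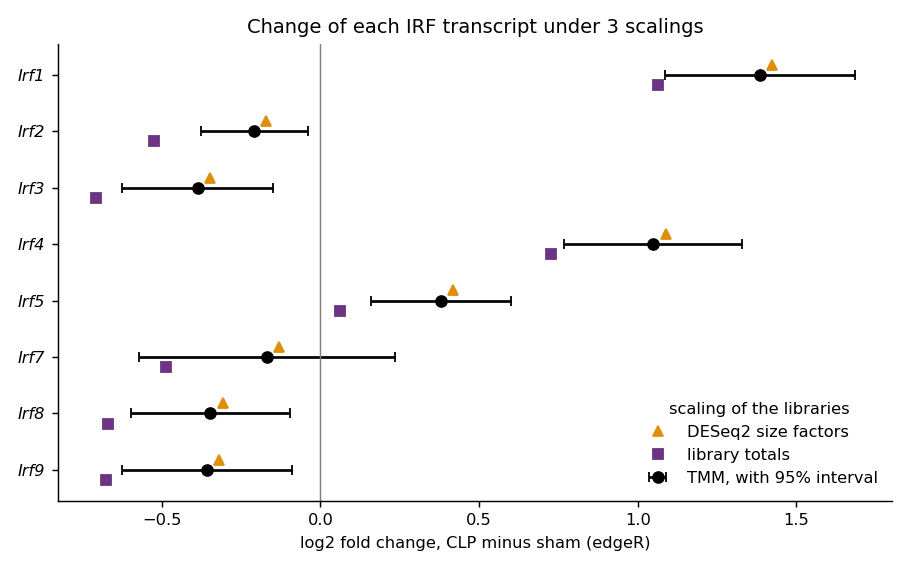
Log2 fold change (CLP minus Sham) of each IRF transcript in edgeR with TMM scaling (circles, with the 95% interval), with DESeq2 size factors (triangles) and with library totals (squares). Irf1 and Irf4 lie above 1 with TMM and stay to the right of 0 under the other scalings, whereas Irf5 falls to 0.06 with library totals.

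Of the 8 genes, 2 had CLP ranges wholly above and 2 wholly below the Sham ranges, where 18.7% of all genes tested lay above and 22.8% below. The median log2 fold change of the 8 genes was -0.19, beside -0.05 over all genes tested. Irf1 and Irf4 were the members both called and changed at least 2-fold, as were 14.7% of all genes tested.

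**Figure D3:**
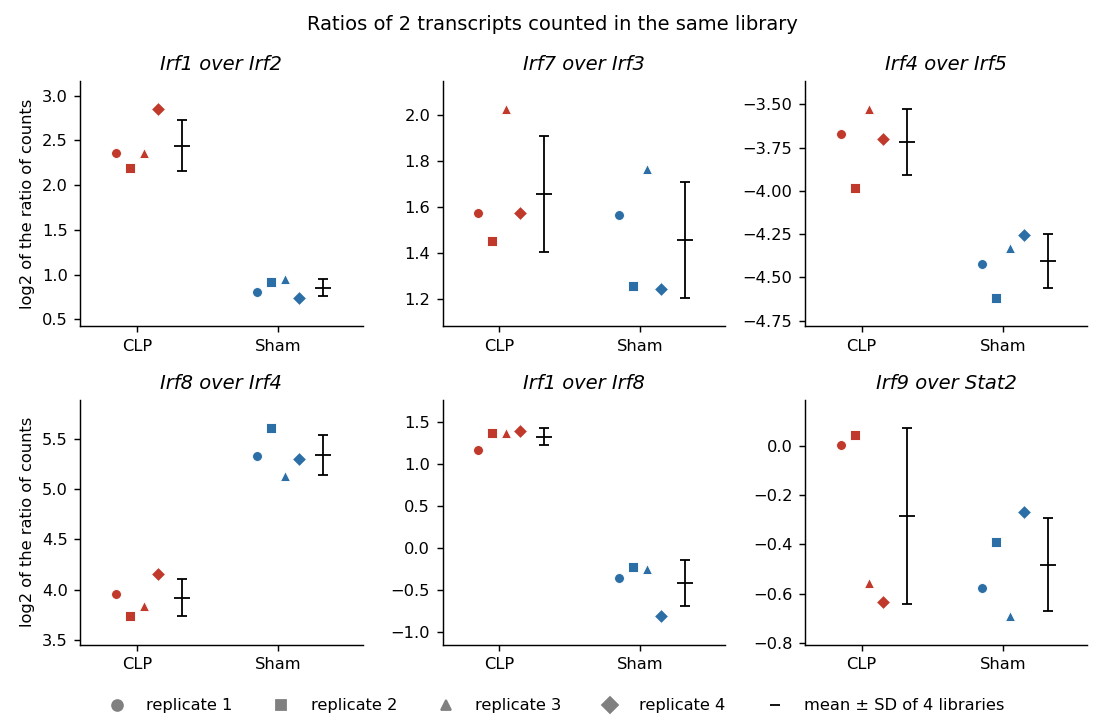
Log2 of the ratio of 2 transcripts counted in the same library, for 6 ratios, in 4 CLP libraries (red) and 4 Sham libraries (blue), with mean ± SD in black. The groups are apart for Irf1 over Irf2, Irf4 over Irf5, Irf8 over Irf4 and Irf1 over Irf8, and overlap for Irf7 over Irf3 and Irf9 over Stat2. Irf1, Irf4 and Irf8 recur among the ratios that are apart, so these ratios are not independent of each other or of the single-gene changes. For single genes, the CPM ranges did not overlap in 41.5% of all genes tested.

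Levels of different genes were compared as CPM per kilobase of annotated exon. In CLP libraries Irf1 led with 178 ± 33 CPM per kb, followed by Irf5 (84.2 ± 12.2), Irf8 (40.0 ± 7.1), Irf7 (25.2 ± 6.5), Irf2 (17.5 ± 0.9), Irf9 (14.2 ± 2.9), Irf3 (8.59 ± 1.13) and Irf4 (3.76 ± 0.25), with SD over 4 libraries. In Sham libraries the order by mean was the same, with Irf1 at 68.3 ± 8.9, Irf5 at 64.8 ± 2.9, Irf8 at 50.9 ± 2.9 and Irf4 last at 1.82 ± 0.25 CPM per kb. Irf1 and Irf5 were apart in CLP libraries and overlapped in Sham libraries, and Irf2 and Irf9 overlapped in both groups. No other neighbours overlapped, but the places of Irf7 and Irf2 in both groups, and of Irf5 and Irf8 in Sham, swapped when the longest transcript was used as the length.

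The summed IRF level was 372 ± 42 CPM per kb in CLP libraries and 264 ± 11 CPM per kb in Sham libraries. Irf1 made up 47.7 ± 3.2% of this sum in CLP and 25.8 ± 2.5% in Sham. The share of Irf8 was 10.7 ± 1.0% in CLP and 19.4 ± 1.9% in Sham, whereas that of Irf5 was 22.8 ± 3.9% in CLP and 24.6 ± 1.3% in Sham. Irf4, though raised, made up 1.02 ± 0.08% in CLP and 0.691 ± 0.108% in Sham.

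**Figure D4:**
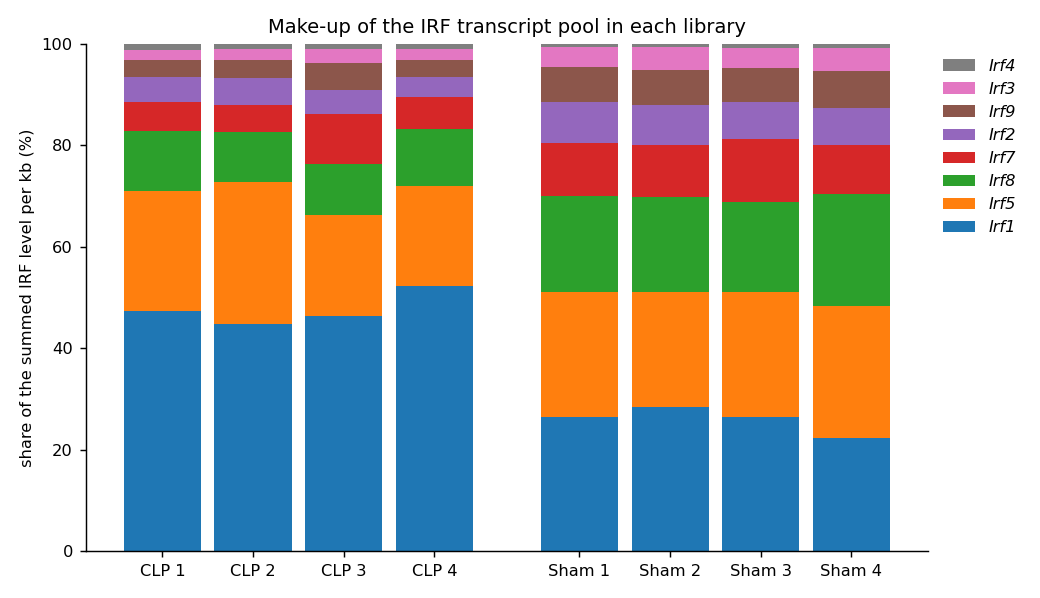
Share of each IRF gene, in percent, of the summed CPM per kb of exon of the 8 genes in each library, with CLP libraries on the left. Irf1 takes 44.7% to 52.3% in CLP libraries and 22.3% to 28.3% in Sham libraries.

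Genes with the pattern most like each called IRF were found by the root mean square (RMS) difference of log2 CPM, centred on each gene's mean, over the 8 libraries and among 9525 genes with at least 5 CPM. The nearest to Irf1 were Sqstm1 (RMS difference 0.09), an autophagy receptor, Ktn1 (0.10) and Litaf (0.12), an LPS-induced lysosomal membrane protein. The nearest to Irf4 were Tgm2 (0.12), a transglutaminase, Lpcat1 (0.12) and Hat1 (0.13), a histone acetyltransferase. Irf9 lay nearest to Brd1 (0.04), Asb8 (0.05) and Wdr81 (0.05), and Irf8 to Mrps11 (0.09), Itpripl1 (0.09) and Coa3 (0.10). Irf2 lay nearest to Fcgr3 (0.04), Irf3 to Timm21 (0.06) and Irf5 to Samd4 (0.07).

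Upstream of the IRFs, transcripts of the interferons themselves were at the limit of detection. Of 14 interferon and receptor genes only 5 receptor genes were tested, of which 2 were higher and the other 3 were not called (1 higher and 2 lower with library totals, 1 higher without CLP replicate 4, and 1 lower without CLP replicate 2). Among all genes tested, 19.8% were higher and 23.5% lower (9.18% and 46.0% with library totals). Ifngr2 rose (log2 fold change 0.60, adjusted p = 0.00109), as did Ifnar2 (0.37, adjusted p = 0.0161, but 0.05 and not called with library totals), both signalling chains of interferon receptors. Ifngr1, the member with the highest level per kb, was at 384 ± 48 CPM in CLP and 437 ± 24 CPM in Sham (adjusted p = 0.131).

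Of 25 sensors, adaptors and kinases that lead to IRF activation, 8 were higher and 10 lower, with a median log2 fold change of 0.09 beside -0.05 for all genes tested (6 and 12 with library totals). Of all genes tested, 19.8% were higher and 23.5% lower with TMM, and 9.18% and 46.0% with library totals. Ikbke, which encodes the IRF3 kinase IKK-epsilon, was at 53.1, 50.6, 197 and 94.8 CPM in CLP libraries and at 15.7, 18.8, 35.5 and 13.6 CPM in Sham libraries. All CLP libraries were higher (log2 fold change 2.25, SE 0.55, edgeR adjusted p = 0.0140), with CLP replicate 3 far above the others. Tank, a TBK1-binding adaptor, rose to 292 ± 21 CPM in CLP, against 107 ± 13 CPM in Sham (log2 fold change 1.45, adjusted p = 1.96e-06). The lipopolysaccharide receptor Tlr4 fell to 62.2 ± 8.6 CPM in CLP, against 196 ± 33 CPM in Sham (log2 fold change -1.66, adjusted p = 6.21e-06). Unc93b1, the chaperone of nucleic acid-sensing Toll-like receptors and the member with the highest level per kb, was not called (0.21, adjusted p = 0.0621). The count of lower genes fell to 6 without CLP replicate 4 and to 4, 4 and 5 without Sham replicate 1, 2 and 3. Mavs, the adaptor of RNA sensing, and Tbk1, both chosen after their values were seen, moved apart, with log2 fold changes of -1.06 (adjusted p = 9.89e-05) and 0.63 (adjusted p = 0.00067).

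Among 11 JAK, STAT and feedback genes, 6 were higher and 2 lower (median log2 fold change 0.47, and 5 and 3 with library totals). All genes tested gave 19.8% higher and 23.5% lower with TMM, and 9.18% and 46.0% with library totals. Socs3, a feedback inhibitor of cytokine receptors, rose to 3510 ± 266 CPM in CLP, against 514 ± 215 CPM in Sham (log2 fold change 2.77, adjusted p = 0.000421). Socs1, which inhibits JAK kinases, rose by 2.44 and the kinase gene Jak2 by 1.48 on the log2 scale.

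DNA-binding partners and co-repressors split evenly, with 5 of 16 higher and 5 lower (median log2 fold change -0.01, and 3 and 8 with library totals). Beside them, 19.8% of all genes tested were higher and 23.5% lower (9.18% and 46.0% with library totals). Batf rose (log2 fold change 1.54, adjusted p = 0.000676), and Spi1, which encodes PU.1, rose to 299 ± 32 CPM in CLP, against 151 ± 16 CPM in Sham (log2 fold change 0.99, adjusted p = 2.5e-05). Irf2bp1, which encodes a co-repressor that binds IRF2, fell to 13.6 ± 2.1 CPM in CLP, against 29.7 ± 2.4 CPM in Sham (log2 fold change -1.13, adjusted p = 3.54e-05). Its relatives Irf2bp2 (-0.51, adjusted p = 0.0106) and Irf2bpl (-0.57, adjusted p = 0.00317), chosen after their values were seen, also fell. Junb, the AP-1 member with the highest level per kb, was not called (0.24, adjusted p = 0.111). Without CLP replicate 4 or Sham replicate 2, 3 partners were called higher.

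Regulators of IRF synthesis and turnover had 5 of 13 members higher and 2 lower (median 0.03, and 5 and 8 with library totals). The shares of all genes tested were 19.8% higher and 23.5% lower, and 9.18% and 46.0% with library totals. Rel, an NF-kB subunit, rose by 2.49 (adjusted p = 4.98e-05), and Kdm6b, a histone demethylase known to act on Irf4, rose by 2.24 on the log2 scale (adjusted p = 2.21e-05). Lyn, a kinase that restrains IRF5, rose by 0.61 (adjusted p = 6.38e-05). Trim21, a ubiquitin ligase for several IRFs, fell to 8.69 ± 3.55 CPM in CLP, against 22.5 ± 1.7 CPM in Sham (log2 fold change -1.37, adjusted p = 0.00184). The count of lower genes was 1 without any single library other than CLP replicate 2, and 1 with DESeq2 or its size factors.

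**Figure D5:**
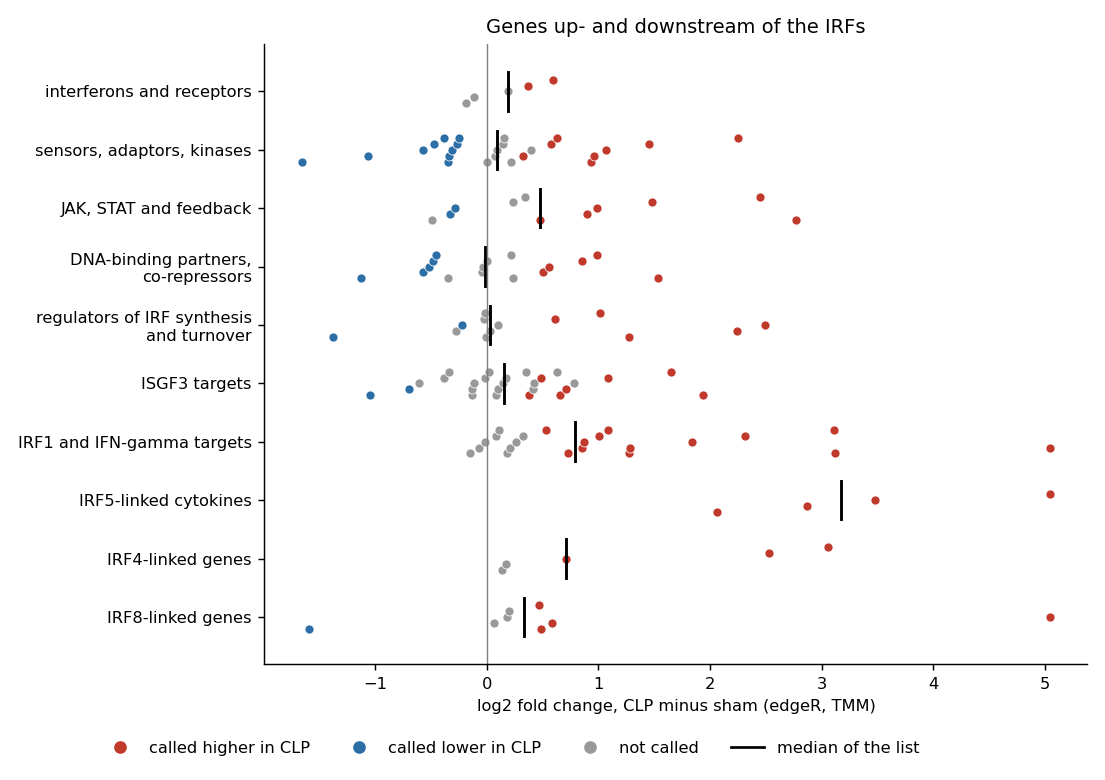
Log2 fold change (CLP minus Sham, edgeR with TMM) of every tested gene in 10 lists of genes up- and downstream of the IRFs, with a point for each gene, colour for its call and a black bar for the list median. Called genes lie on both sides of 0 among sensors, partners and regulators, and all 13 called genes among the IRF1 and interferon-gamma targets lie to the right of 0.

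Downstream, of 22 IRF1 and interferon-gamma targets tested, 13 were higher and the other 9 were not called (median log2 fold change 0.79), against 11 higher and 3 lower with library totals. Over all genes tested, 19.8% were higher and 23.5% lower with TMM, and 9.18% and 46.0% with library totals. Il12b, a subunit of interleukin-12 that also stands in the IRF5 and IRF8 lists, rose to 74.9 ± 26.8 CPM in CLP, against 2.37 ± 1.85 CPM in Sham (log2 fold change 5.05, adjusted p = 0.000459). Cd274, which encodes PD-L1, rose by 3.12, and Il27, a cytokine subunit of the interleukin-12 family, by 3.11 on the log2 scale. The immunoproteasome genes Psmb8, Psmb9 and Psmb10, also known targets of IRF1 and chosen after their values were seen, had log2 fold changes of 0.08, -0.06 and -0.01 and were not called, though Psmb9 and Psmb10 were lower with library totals.

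Of 26 ISGF3 targets, 7 were higher and 2 lower (median log2 fold change 0.16), against 3 and 8 with library totals, and 4 were higher with no filter on low counts. Among all genes tested, 19.8% were higher and 23.5% lower with TMM, and 9.18% and 46.0% with library totals. Cxcl10, a chemokine, rose to 157 ± 33 CPM in CLP, against 41.0 ± 15.9 CPM in Sham (log2 fold change 1.94, adjusted p = 0.000733). Mx2, an antiviral GTPase, was at 39.6, 32.8, 90.7 and 70.2 CPM in CLP libraries and at 15.2, 17.1, 26.9 and 15.4 CPM in Sham libraries (log2 fold change 1.65, adjusted p = 0.00645). Isg20, an exonuclease, rose by 1.09, and Ifitm3, the member with the highest level per kb, by 0.38 (0.06 and not called with library totals). Ifit3 and Ifit3b, chosen after their values were seen, fell by 0.70 and 1.04 on the log2 scale, and reads of such near-identical copies may be shared between them.

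The ISGF3 targets varied between CLP libraries as Irf7, Irf9 and Stat2 did. Their mean log2 level relative to the Sham mean was 0.07, -0.21, 0.59 and 0.45 in CLP libraries 1 to 4, and -0.12, -0.12, 0.29 and -0.05 in Sham libraries 1 to 4. CLP replicates 3 and 4 were the high ones in each case. The summed level of 8 neutrophil markers was higher in the same libraries, at 10.4, 13.0, 27.3 and 25.5 CPM in CLP libraries and 3.33 to 8.91 CPM in Sham libraries, led by S100a9 (9.90 CPM in CLP and 2.06 CPM in Sham, log2 fold change 2.29, adjusted p = 0.0053). All 8 neutrophil markers were detected, and of the 3 tested 2 were higher, also with library totals (median log2 fold change 2.14). Over the whole test, 19.8% of genes were higher with TMM and 9.18% with library totals. Within the CLP group, the sums of plasma cell and of T or NK cell markers were also highest in replicates 3 and 4. The plasma cell sums were 255, 246, 357 and 321 CPM in CLP libraries 1 to 4. The T or NK cell sums were 106, 114, 126 and 122 CPM. The mean log2 level relative to the Sham mean gave another order in the same CLP libraries. It was 0.15, 0.56, 0.86 and 0.42 for plasma cell markers and -0.46, -0.06, 0.54 and -0.32 for T or NK cell markers. On this measure replicate 4 was below replicate 2 for both lists. Ly6g, a defining marker chosen after its values were seen, had at most 1 count. The part of these cells in the IRF values was not tested.

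The genes linked to IRF4, IRF5 or IRF8 were few, and Il12b was counted for both IRF5 and IRF8. Of 4 IRF5-linked cytokine genes tested, 4 were higher, among them Il6 (log2 fold change 3.48) and Il1b (2.87). Of 5 tested genes linked to IRF4, 3 were higher: Ccl22, a chemokine (3.06), Prdm1, the repressor Blimp-1 (2.53), and Myc (0.71), while Mrc1, the mannose receptor, was not called (0.14, adjusted p = 0.251) and Retnla had no count. Of 8 genes linked to IRF8, 4 were higher and 1 lower (2 and 2 with library totals). Beside these lists, 19.8% of all genes tested were higher and 23.5% lower with TMM, and 9.18% and 46.0% with library totals. Klf4, a transcription factor of monocytes, fell by 1.59 (adjusted p = 1.70e-05), and Cybb, the NADPH oxidase subunit, rose by 0.59, while Cst3, the member with the highest level per kb, was not called (0.20, adjusted p = 0.0633).

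All 10 markers of red pulp macrophages, the cell type the labels name, were detected, Vcam1 highest at 16138 ± 1980 CPM in CLP and 12611 ± 1181 CPM in Sham. Of the 10, 4 were higher and 2 lower with TMM, and 1 higher and 4 lower with library totals. Over all genes tested, 19.8% were higher and 23.5% lower with TMM, and 9.18% and 46.0% with library totals. The 7 B cell markers summed to 32.6 to 43.9 CPM in CLP and 45.1 to 51.4 CPM in Sham, with Cd79b lower in CLP (log2 fold change -0.58, adjusted p = 0.00339). The other 6 B cell markers were not called, and the median log2 fold change of the 7 was -0.16. Among 6 plasma cell markers Xbp1 made up most of the 246 to 357 CPM in CLP and 219 to 311 CPM in Sham, and Mzb1 had at most 10 counts in a library. The 6 plasmacytoid dendritic cell markers summed to 98.1 to 109 CPM in CLP and 95.3 to 109 CPM in Sham, nearly all of it Tcf4, while Siglech had at most 16 counts in a library. Mzb1 and Siglech were chosen after their values were seen. Among 6 conventional dendritic cell markers Wdfy4 made up most of the 777 to 923 CPM in CLP and 715 to 790 CPM in Sham. Of the 5 tested, 1 was higher and 1 lower (median log2 fold change 0.19). The lower one, Clec9a, chosen after its values were seen, was at 6.40 CPM in CLP and 10.8 CPM in Sham (log2 fold change -0.76, adjusted p = 0.0409). Monocyte markers summed to 26.3 to 52.8 CPM in CLP and 31.8 to 39.3 CPM in Sham, and T or NK cell markers to 106 to 126 CPM in CLP and 98.0 to 102 CPM in Sham, led by Cd4. Of the 8 T or NK cell genes tested, 1 was lower and 7 were not called (median log2 fold change 0.23). Their mean log2 level relative to the Sham mean was -0.46, -0.06, 0.54 and -0.32 in CLP libraries 1 to 4, and -0.18 to 0.25 in Sham libraries. Erythroid markers, led by Alas2, summed to 433 to 801 CPM in CLP and 168 to 423 CPM in Sham, and platelet markers, led by Ppbp, to 17.5 to 22.3 CPM in CLP and 6.62 to 7.78 CPM in Sham. Of 5 tested erythroid genes 2 were higher and 1 lower, and of 4 tested platelet genes 3 were higher, where 19.8% of all genes tested were higher and 23.5% lower. The mean log2 level of the erythroid genes relative to the Sham mean was 0.03 to 0.66 in CLP libraries and 1.08 in Sham replicate 4, the highest of all libraries. Every marker had a count in at least 1 library. The part of these cells in the IRF values was not tested.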

How the data were processed

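Raw counts per Ensembl gene, deposited by the authors as 1 table with a column per library, were used for 4 CLP and 4 Sham libraries. RNA from a Bio-Rad Aurum kit was, per the labels' protocols, made into stranded Illumina TruSeq libraries and sequenced on an Element AVITI. FastQC, STAR 2.7.10b, featureCounts, DESeq2 and mm39 stand in the submitters' processing notes without roles. For the annotation release and strand setting, nothing is given in the sources used here. Reads of overlapping genes on opposite strands can therefore not be told apart with certainty.

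The 8 IRF genes and all gene lists were chosen with earlier results of these data known. Symbols (52081 of 55414 IDs) and exon lengths came from GENCODE M21, an older build (2 list genes under an older symbol), and promoters from RefSeq. The test was the robust quasi-likelihood F-test of edgeR 4.0.16 (R 4.3.3) after filterByExpr and TMM, with the 2 groups and no covariates. TMM factors were 0.873 to 0.915 in CLP and 1.08 to 1.15 in Sham, so that 1 CPM rests on 15.1 to 27.6 counts. Ratios used counts plus 0.5 and two-sided exact permutation tests over 70 assignments. Some ratios share a gene, so their p-values are not independent. No 2 libraries of a group agreed within counting error, the smallest chi-square over its degrees of freedom being 9.25. Mitochondrial transcripts took 0.695% to 0.748% of counts in CLP and 0.710% to 0.761% in Sham. The labels name no batch. Alternatives were DESeq2 1.42.0, limma-voom 3.58.1, DESeq2 size factors, library totals, 2 other filters, 1 surrogate variable (sva 3.50.0), a replicate block and each library left out. The edgeR step was tested on simulated counts.

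Some items are not reported here. Genes named besides the 8 IRFs were, from each pathway list, the 3 largest called changes at 5 CPM or more and the member with the highest level per kb, and from each marker list the highest member. Outside this rule, Stat2 is named for its ratio, and Tnpo3, Bcl2l12, Gm17334, Phrf1 and Rnf31 for exons shared with an IRF. Retnla, the interferon genes and those marked so in the text were chosen after their values were seen. For each called IRF the 3 nearest patterns were taken. Figures used Python 3.11.15 and matplotlib 3.10.9.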

Additional observations from a re-analysis of the deposited data

Results flagged for a closer look

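The ratio of Irf1 to Irf8 counts in CLP replicate 1 stood apart from the other CLP libraries: its log2 was 1.17, where the other CLP libraries lay between 1.37 and 1.40. The gap between this library and its nearest neighbour took up most of the range of the group. Among 28 groups of 4 libraries examined in this way, chance alone is likely to give such a gap in about 1 of 20. The ratio in CLP replicate 1 was still above that of every Sham library, and without it the log2 difference between the groups was 1.79.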

How the results depend on the processing

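Across 16 alternative settings, none of the 8 IRF genes changed the sign of its log2 fold change. Irf1 and Irf4 were called in all of them, Irf5 in all but library totals, and Irf3 in all but the fit without Sham replicate 2. The count of IRF genes called lower, 4 with edgeR and TMM, was 2 with DESeq2 and 2 with DESeq2 size factors, and ranged from 0 to 2 when a single library was left out, with 0 in edgeR without Sham replicate 2, where 3 were lower at an unadjusted p under 0.05. The count called higher was 3 in every setting but library totals, where it was 2. Over all genes tested, 23.5% were lower with TMM, 21.6% with DESeq2 size factors and 46.0% with library totals. The shares called higher were 19.8%, 21.8% and 9.18%. Without Sham replicate 2, 2639 of 14197 genes were lower and 2575 higher, and with DESeq2 3135 of 26831 were lower and 3115 higher. By level per kb, the longest transcript put Irf7 at place 5 and Irf2 at place 4 in CLP, and Irf5 at place 3, Irf8 at place 2, Irf7 at place 5 and Irf2 at place 4 in Sham. The planned comparison of protein sequences was not run. With a single library left out, the log2 difference was 1.45 to 1.67 for Irf1 over Irf2, 1.61 to 1.80 for Irf1 over Irf8, 0.62 to 0.77 for Irf4 over Irf5, -1.50 to -1.33 for Irf8 over Irf4, 0.08 to 0.30 for Irf7 over Irf3 and 0.09 to 0.31 for Irf9 over Stat2. For the 4 ratios whose groups do not overlap, the exact p is then fixed at the smallest that 35 assignments allow. Of 320 counts of called genes over the 10 pathway lists and these settings, 28 moved by more than 1.5 times, 10 of them with library totals. Over all genes, the called genes were 45.6% higher ones with TMM, 50.2% with DESeq2 size factors and 16.7% with library totals.

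The correlation of deviations between same-numbered libraries was 0.07, -0.04, 0.26 and -0.19 for numbers 1 to 4. It was over 0.1 for number 3 alone, whose CLP library matched its own number best, so the numbers were not taken to pair the samples. With the number as a replicate block, 3 IRF genes were higher and 4 lower. Of 14004 genes tested with this block, 6089 were called in place of 6064, 2799 of them higher and 3290 lower. The Irf1 over Irf2 difference was then 1.58 (exact sign-flip p = 0.125, the smallest 4 pairs allow). The other CLP libraries correlated best with another number. Irf4 has the fewest reads of the family and the interferon genes were too shallow to test.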

Other observations

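Among interferon genes, Ifnb1, which encodes interferon-beta, had 0, 1, 8 and 1 counts in CLP libraries 1 to 4 and 0, 1, 0 and 0 counts in Sham libraries 1 to 4. Ifng, which encodes interferon-gamma, had 0, 4, 9 and 1 counts in CLP libraries 1 to 4 and 0, 6, 1 and 2 counts in Sham libraries 1 to 4. CLP replicate 3, highest for both, also had the highest Irf7, Irf9, Stat2 and Ikbke levels of the CLP group. Its summed neutrophil, monocyte, plasma cell, T or NK cell and erythroid markers were the highest of that group as well. Its red pulp macrophage, B cell and dendritic cell sums were the lowest. Interferon counts this low carry large counting error and were not tested. Ifna1, Ifna2, Ifnl2 and Ifnl3 had no count in any library.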
